A study of Mus musculus with 9 samples.

Results

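The response of mouse tibialis anterior muscle to dexamethasone (DEX), a synthetic glucocorticoid, was described by pooling all 6 arrays of DEX-injected mice, whichever diet they ate, and setting them against the 3 arrays of saline-injected controls. The members were chosen from the sample labels: the 3 arrays of mice given dexamethasone and the 3 of mice given dexamethasone and turmeric form the pool, and these 9 arrays are the whole series. All mice were male C57BL/6J, 15 weeks old, and each gave 1 array. Control mice received the plain AIN93-based diet and 0.9% saline. DEX mice ate that plain diet and were injected intraperitoneally with 5 mg/kg DEX daily for 7 d. DEX + TE mice received the same injections on a diet with 2% turmeric extract (TE), a water extract of Curcuma longa rhizomes, which the methods start 5 d before the injections, although the labels describe it as given after dexamethasone. There was no group on TE without DEX, so the pool differs from the controls by DEX and, in 3 of its 6 mice, by diet too. The 3 mice of each group were chosen for body and muscle weights close to the average, and the biopsies are whole muscle, in which fewer cells of a type and less RNA per cell cannot be told apart.

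DEX enters cells and binds the glucocorticoid receptor, a transcription factor that then moves to the nucleus, binds DNA at palindromic elements and raises or lowers the transcription of nearby genes. In skeletal muscle glucocorticoids are known for protein loss: fast fibers shrink as the ubiquitin ligases atrogin-1 (Fbxo32) and MuRF1 (Trim63) tag proteins for the proteasome, growth signaling through IGF and mTORC1 is restrained, and collagen synthesis and immune genes are lowered. Classic direct targets, such as Fkbp5, Tsc22d3 and Per1, are raised within hours in many cell types. The injections here lasted 7 d, so the arrays show the state after repeated doses and not the first response to the hormone.

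Each array carries 45037 probe sets (groups of short oligonucleotides that together read 1 transcript) besides the manufacturer's controls, and 19521 of them were kept because their mean log2 signal over all 9 arrays reached log2 of 100. The dimmest kept probe set averaged 100.009 and the brightest one left out averaged 99.977. The arrays were of similar depth, with median signals from 71.3 to 95.003, and 58.5% to 65.2% of probe sets reached a signal of 50. Correlations of log2 signals ran from 0.9747 to 0.9828 within groups and from 0.9651 to 0.9805 between them. The tissue label was borne out: Acta1, Ckm and Myh4, encoding skeletal actin, muscle creatine kinase and the fastest myosin, were among the brightest genes of the table. No batch, scan date or litter is given for the arrays, so none could be tested.

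Lipocalin-2 (Lcn2), the adrenaline-forming enzyme Pnmt and the methyl-group enzyme Gnmt rose most after DEX injection, and the mTORC1 inhibitor Ddit4, the arrestin-like Arrdc2 and fibrillar collagens fell most. Of the 19521 probe sets, 426 (2.18%) passed limma's test at an adjusted p below 0.05 with an absolute log2 fold change of 0.6 or more; these are the "called" probe sets below. Of them 252 (1.29%) were higher and 174 (0.891%) lower in the 6 DEX-injected mice. The called probe sets with 1 gene symbol belong to 320 genes, 190 higher and 130 lower, and no gene had probe sets called in both directions. Counted over 10258 genes, each by its brightest probe set, 126 were called higher (1.23%) and 113 lower (1.1%). Changes of at least 2-fold were called in 108 probe sets that rose and 75 that fell, and of at least 4-fold in 32 and 11. In 424 of the 426 the 6 DEX-injected mice did not overlap the 3 controls, which was so for 13.9% of all probe sets. The calls rest on the same values, and the leading rises and falls below were chosen among called probe sets without overlap.

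An unadjusted p below 0.05 was reached by 4072 probe sets (20.9%). The median change over the 10258 genes was -0.013 on the log2 scale, near 0 as the scaling of each array to one trimmed mean sets it. Of these genes 47.6% were higher by value. Over the brightest 1% (102 genes), where the contractile genes lie, the median was -0.27 with 7 genes higher by value, but after quantile normalization it was -0.009 with 49 higher, so no direction is given for the brightest genes. Leaving out each array in turn gave 135 to 267 probe sets called higher and 57 to 178 called lower. The counts moved by more than 1.5 times without the third control (135 higher, 57 lower) and, for the lower calls, without the second control (86) or the second DEX mouse (113), and 148 of the 426 (97 higher, 51 lower) were called in all 9 of these refits.

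**Figure D1:**
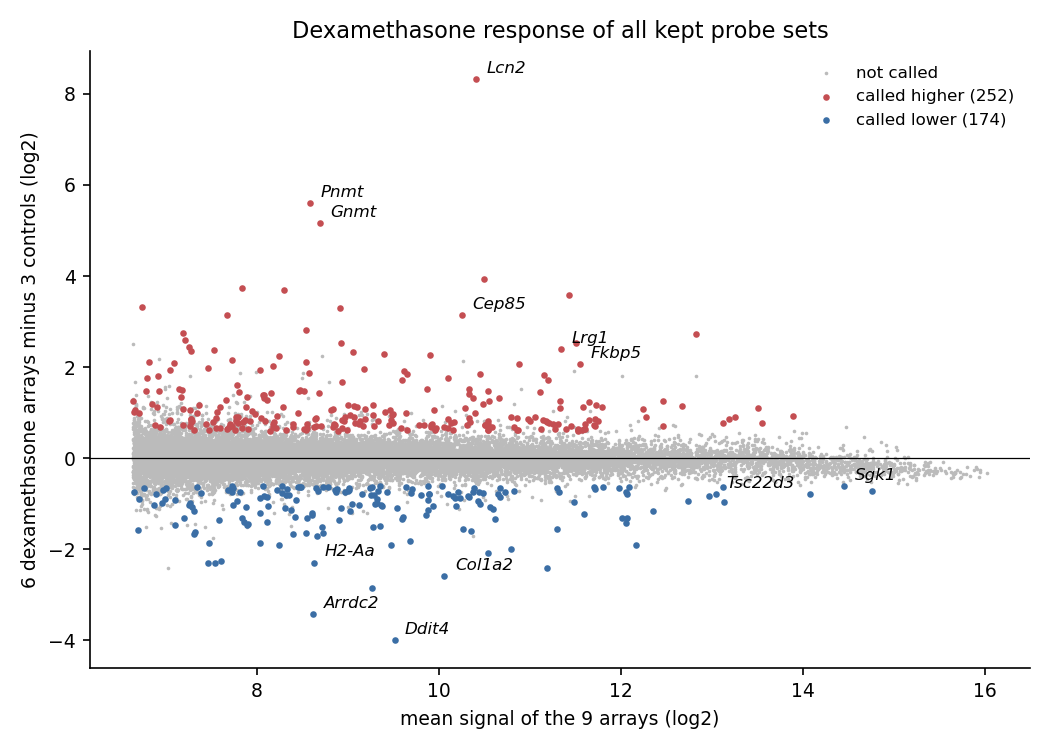
Each point is 1 of the 19521 kept probe sets, placed by its mean log2 signal over the 9 arrays (horizontal) and by the difference between the 6 DEX-injected and 3 control mice on the log2 scale (vertical). The 252 probe sets called higher (red) and 174 called lower (blue) lie at every signal level; Lcn2 stands highest and Ddit4 lowest among the named ones, and the brightest probe sets, at the right, lie below 0 in this scaling and not after quantile normalization.

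The secreted iron-carrier protein Lcn2, made in inflammation and raised by glucocorticoids in many tissues, had the largest rise. Its signal was 11.9, 35.1 and 58.6 in Control, 15040, 9011 and 10810 in DEX and 8534, 7300 and 7325 in DEX + TE mice. The controls were near or below 50, the signal under which the study's methods discard a probe set, while all 6 DEX-injected mice stood at 7300 or more, a log2 fold change of 8.33 ± 0.44, adjusted p = 2.17e-05 at these control signals and 7.47 with every signal under 50 raised to 50. Pnmt, which converts noradrenaline to adrenaline and is a known glucocorticoid-responsive gene of the adrenal medulla, read 19.1, 56.3 and 22.2 in Control, 2242, 1353 and 1150 in DEX and 1327, 1217 and 1353 in DEX + TE mice. All 6 DEX-injected mice were far above the controls (5.61 ± 0.33, adjusted p = 4.98e-05, and 4.75 with signals raised to 50), and a brighter Pnmt probe set rose by 1.97 ± 0.16 (adjusted p = 0.000469). Gnmt, an abundant liver enzyme that uses up methyl groups from S-adenosylmethionine, stood at 155, 44.0 and 8.17 in Control, 2091, 1284 and 1332 in DEX and 1256, 1464 and 1009 in DEX + TE mice. Every DEX-injected mouse was above 1000, and the controls differed widely among themselves (5.17 ± 0.72, adjusted p = 0.00717, and 4.23 with signals raised to 50). Lcn2, Pnmt, Gnmt and Apoh each had 2 controls under 50 and reached the mean of 100 over the 9 arrays only through the DEX-injected mice. The same holds for Lig1 and Cdc26 (control means 42.7 and 52.1, averaged as log2). Ptprf, Myo5a, 4430402I18Rik, Myh7, Hp and Scn3b, with control means of 40.9, 47.9, 49.3, 52.4, 57.1 and 77.9, also passed that filter only through these mice. With signals raised to 50, the rises were 2.985 for Ptprf, 2.34 for Myo5a, 1.51 for Lig1 and 1.85 for Cdc26. They were 1.795 for 4430402I18Rik, 1.98 for Myh7 and 3.25 for Hp, and unchanged for Scn3b. The size and the rank of all these rises are less certain than for brighter genes.

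Several genes of liver and acute-phase secretion were in this group. Haptoglobin (Hp), the plasma protein that binds free hemoglobin, measured 19.99, 109 and 85.5 in Control, 714, 486 and 399 in DEX and 884, 1210 and 1095 in DEX + TE mice. The groups did not overlap, and the 3 DEX + TE mice were above the 3 DEX mice (3.69 ± 0.55, adjusted p = 0.00926). Leucine-rich alpha-2-glycoprotein (Lrg1), a secreted protein of inflammation and vessel growth, was well above background everywhere, at 923, 752 and 911 in Control, 5518, 4694 and 4533 in DEX and 4140, 4054 and 4345 in DEX + TE mice. The spread within each group was small beside the difference (2.40 ± 0.12, adjusted p = 1.36e-05). Apoh, a phospholipid-binding plasma protein, rose from 44.7, 36.9 and 53.9 in Control mice to 329.9, 239 and 295 in DEX and 271, 169.9 and 358 in DEX + TE mice (2.59 ± 0.23, adjusted p = 0.000612, and 2.39 with signals raised to 50).

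Genes of other functions completed the group. Pim1, a kinase that promotes survival and growth, read 257, 260.4 and 194 in Control, 757, 1187 and 1205 in DEX and 1082, 1283 and 1477 in DEX + TE mice, with no overlap (2.28 ± 0.20, adjusted p = 0.000585). Cdkal1, which modifies a transfer RNA, rose from 1034, 839 and 841 to 4843, 6124 and 5000 in DEX and 5683, 4063 and 5940 in DEX + TE mice (2.54 ± 0.14, adjusted p = 3.16e-05). The receptor phosphatase Ptprf (log2 fold change 3.73 ± 0.57), the sodium-channel subunit Scn3b (2.16 ± 0.26) and the transport motor Myo5a (3.14 ± 0.68) were called too. Lig1, a DNA ligase, and the uncharacterized 4430402I18Rik rose by 2.11 ± 0.48 and 2.45 ± 0.57, from control signals of 46.4, 15.6 and 108 and of 91.0, 12.9 and 102. The nuclear receptor Nr4a2, the stress factor Atf3, the co-chaperone Fkbp5, the slow myosin Myh7 and Car3 are described with their families.

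For some genes other probe sets did not show the rise. Cep85, a centrosome protein, read 256, 271 and 336 in Control, 2182, 2340 and 2634 in DEX and 2786, 2553 and 2795 in DEX + TE mice at the probe set called (3.15 ± 0.12, adjusted p = 1.42e-06), while its other kept probe set changed by 0.18 ± 0.10 (adjusted p = 0.359). Cdc26, a subunit of the anaphase-promoting complex, rose by 2.09 ± 0.28 at a dim probe set and by 0.11 ± 0.08 (adjusted p = 0.49) at its brightest. Which transcripts these probe sets read was not tested.

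Of the 20 leading risers, Lcn2, Pnmt, Gnmt, Ptprf, Hp, Cep85, Apoh, Cdkal1, Lrg1, Pim1, Scn3b, Cdc26 and Fkbp5 were called in all 9 refits that each left out 1 array. The call of Nr4a2, Lig1, Myh7 and 4430402I18Rik was kept in only 1 of the 9, with adjusted p up to 0.174, 0.0998, 0.128 and 0.0843, and that of Myo5a in 2. Car3 was not called without the first or the third control (adjusted p up to 0.0801), and Atf3 without any 1 of the 3 controls (up to 0.0774).

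**Figure D2:**
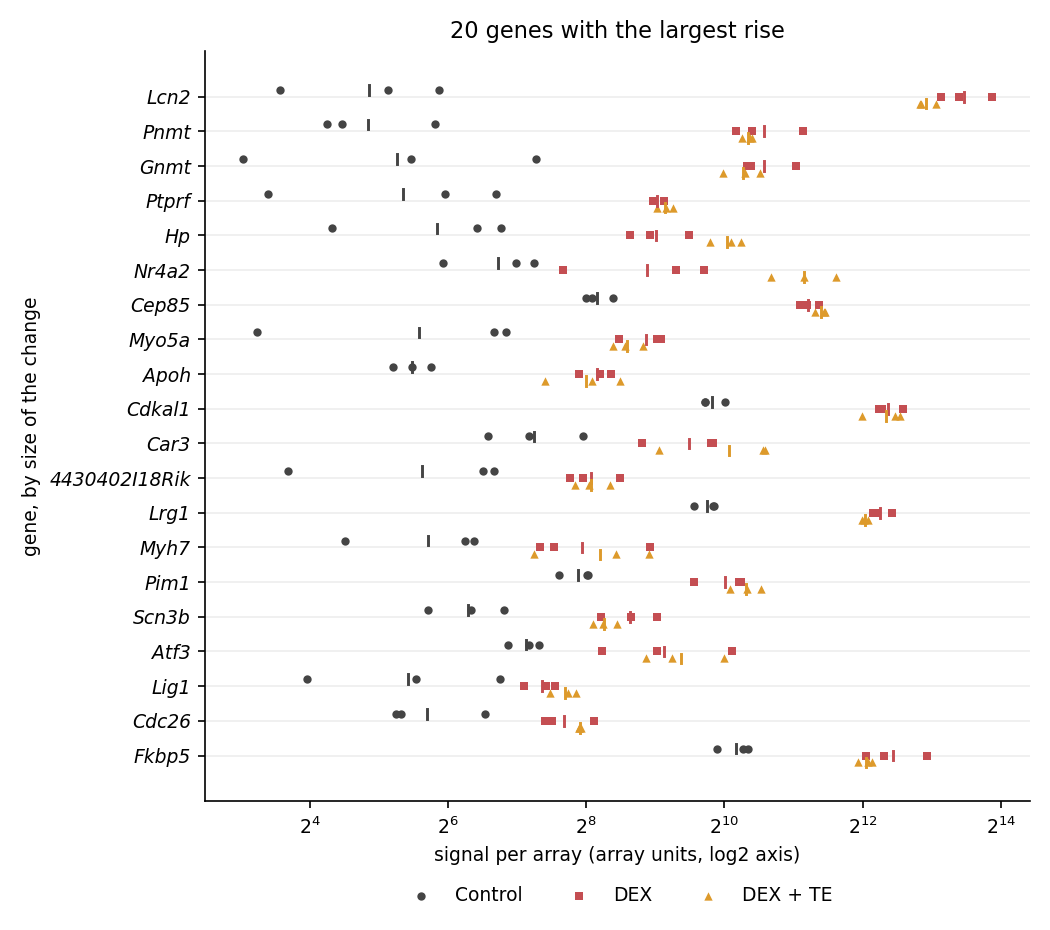
Signal on each of the 9 arrays (horizontal, log2 axis) for the 20 genes with the largest called rise, from Lcn2 at the top to Fkbp5; circles are Control, squares DEX and triangles DEX + TE mice, and short bars are group means of log2 signal. In each gene all 6 DEX-injected mice lie to the right of the 3 controls, which was a condition of the choice. For Nr4a2 the 3 DEX + TE mice lie to the right of the 3 DEX mice.

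Ddit4 (REDD1), which restrains mTORC1 and is usually raised by glucocorticoids in muscle, had the largest fall. Its signal was 5136, 4308 and 4470 in Control, 389.6, 258 and 312 in DEX and 372, 277 and 189.5 in DEX + TE mice. Every DEX-injected mouse was below 400 and every control at 4308 or more, a log2 fold change of -3.99 ± 0.21, adjusted p = 2.17e-05, or 15.9-fold. Arrdc2, an arrestin-like gene, fell in all 6 mice with more spread, from 1709, 1832 and 2264 to 716, 80.4 and 154 in DEX and 150, 134 and 182 in DEX + TE mice (-3.43 ± 0.55, adjusted p = 0.0123); the first DEX mouse kept the highest level of the 6.

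Growth-arrest and signaling genes were also among the leading falls. Gadd45g, a stress sensor that interacts with cell-cycle proteins, read 4511, 3786 and 3523 in Control, 1409, 698 and 466.4 in DEX and 1172, 977 and 1194 in DEX + TE mice, with every control above every DEX-injected mouse (-2.08 ± 0.32, adjusted p = 0.0101). Nfkbia, the inhibitor that keeps NF-kB in the cytoplasm and is itself described as a glucocorticoid target, fell at 4 of its 5 kept probe sets, to a log2 fold change of -1.55 ± 0.13 (adjusted p = 0.000485) at the one that moved most; the fifth was at -0.51 ± 0.18 (adjusted p = 0.145). Fam107a, an actin-bundling protein known to respond to stress hormones, went from 522, 420 and 605 to 129, 69.8 and 89.5 in DEX and 118, 116 and 116 in DEX + TE mice (-2.29 ± 0.20, adjusted p = 0.000612). The apelin receptor Aplnr fell (-1.87 ± 0.19, adjusted p = 0.00126), as did the guanine nucleotide exchange factor Mcf2l, with -1.64 ± 0.27 (adjusted p = 0.0136).

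Enzymes, carriers and matrix genes completed the list. The alcohol dehydrogenase Adh1 and the carbonyl reductase Cbr2, both oxidoreductases, were lower, at -1.82 ± 0.22 (adjusted p = 0.00378) and -1.64 ± 0.15 (adjusted p = 0.000829). The steroid sulfate transporter Slc10a6 changed by -1.66 ± 0.32 and the mitochondrial carrier Slc25a30 by -1.52 ± 0.30. Nrep, a gene of regenerating tissue, read 4272, 5757 and 5681 in Control, 1313, 1727 and 2066 in DEX and 2495, 1763 and 1424 in DEX + TE mice, below every control in each DEX-injected mouse (-1.56 ± 0.20, adjusted p = 0.0052). Clip4, a microtubule-binding protein, was called lower at 1 of its 7 kept probe sets (-1.60 ± 0.26), with values from -0.23 to 0.39 at the others. H2-Aa, Timp4, the cornea and tendon proteoglycan Kera, the fibulin Fbln7 and the collagens are described with their families. Of these 20 genes, Ddit4, Col1a2, Col3a1, Fam107a, Gadd45g, Timp4, Aplnr, Adh1, Cbr2, Nrep and Nfkbia were called in all 9 refits, and Slc25a30 in the fewest, 3. Each of the other 9 was lost without the third control, where the adjusted p was 0.0658 for Arrdc2, lost in that refit alone, and 0.129 for Fbln7.

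**Figure D3:**
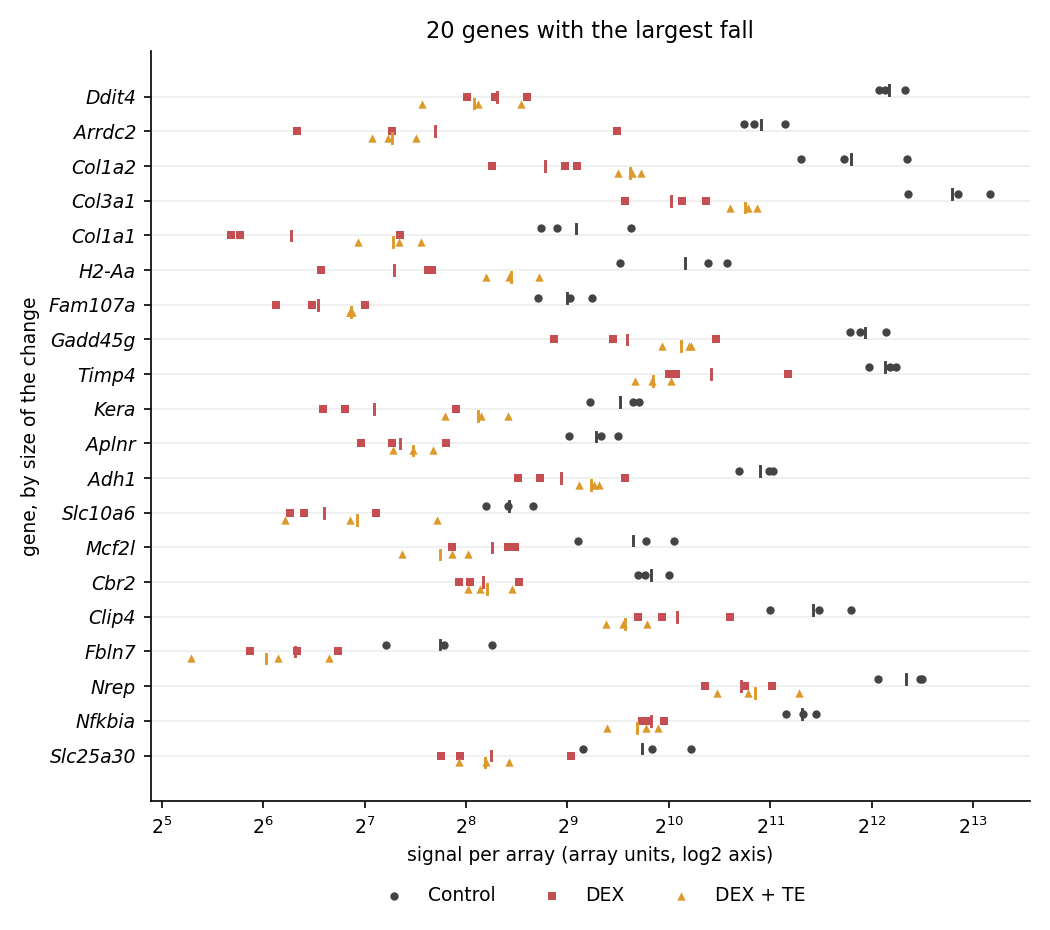
Signal on each of the 9 arrays (horizontal, log2 axis) for the 20 genes with the largest called fall, from Ddit4 at the top to Slc25a30, with symbols as for the rises. In each gene all 6 DEX-injected mice lie to the left of the 3 controls, which was a condition of the choice. For Col1a2, Col3a1, H2-Aa and Kera the DEX mice reach lower than the DEX + TE mice.

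Among the glucocorticoid receptor and its classic targets, Fkbp5, Cdkn1a, Mt1 and Lcn2 rose and Ddit4, Per1, Cebpb, Tsc22d3 and Sgk1 fell, so that 9 of the 22 genes measured were called, with a median change of -0.16 against -0.013 over all genes. Over all genes 1.23% were called higher and 1.1% lower. Fkbp5, the co-chaperone that feeds back on the receptor, read 1303, 950.4 and 1235 in Control, 7827, 5090 and 4255 in DEX and 4479, 3897 and 4326 in DEX + TE mice. All 6 DEX-injected mice lay well above the highest control (2.07 ± 0.21, adjusted p = 0.00146). Metallothionein Mt1, a zinc-binding protein, rose from 1908, 1670 and 1890 to 7918, 4322 and 3186 in DEX and 3875, 4004 and 3557 in DEX + TE mice (1.23 ± 0.25, adjusted p = 0.0287), and its partner Mt2, with a wider spread, stood at 1.18 ± 0.36 (adjusted p = 0.102).

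Tsc22d3 (GILZ), which carries much of the anti-inflammatory action of glucocorticoids and is normally raised by them, was lower, at 11578, 12637 and 12512 in Control, 8532, 6021 and 6722 in DEX and 7111, 7507 and 6667 in DEX + TE mice. All 6 DEX-injected mice were below all 3 controls (-0.80 ± 0.11, adjusted p = 0.00686), while its other kept probe sets were at -0.59 ± 0.12 (adjusted p = 0.0252, just short of the fold threshold) and -0.18 ± 0.16 (adjusted p = 0.555). The kinase Sgk1, another gene usually raised, was among the brightest on the array and fell from 31170, 27379 and 31336 to 19474, 17379 and 17806 in DEX and 20678, 20036 and 22322 in DEX + TE mice (-0.61 ± 0.10, adjusted p = 0.0123). The transcription factor Cebpb was lower, at -0.82 ± 0.11 (adjusted p = 0.00707), and Per1, at -1.09 ± 0.24 (adjusted p = 0.0376).

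The other 13 genes of the list did not pass. The receptor itself, Nr3c1, was at -0.099 ± 0.08 (adjusted p = 0.516) and the muscle targets Klf15, Pdk4 and Glul at -0.46 ± 0.28, -0.50 ± 0.23 and -0.70 ± 0.20 (adjusted p = 0.393, 0.254 and 0.0841). Cebpd was at -1.70 ± 0.45 (adjusted p = 0.0694), and the first DEX mouse lay within the range of the controls. Zbtb16, Dusp1, Errfi1, Klf9 and Hsd11b1 had values from -0.28 to -0.079 at their brightest probe sets, and Fkbp4 and Angptl4 were at 0.18 and 0.36. Within the list Fkbp5, Lcn2, Ddit4, Cebpb and Tsc22d3 were called in all 9 refits, while Sgk1, Cdkn1a, Mt1 and Per1 were called in 5, 5, 3 and 2 of them (adjusted p up to 0.0697, 0.104, 0.103 and 0.148).

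Promoter sequences are shown for the called genes whose 250 bases upstream of a RefSeq start site hold the palindromic receptor element written GNACANNNTGTNC (N is any base; the reverse complement has the same letters, so 1 search covers both strands). Of the 320 called genes, 252 had a promoter in the RefSeq table for GRCm38.p6. The element was found in 3 of 152 genes called higher (1.97%; Amy1, Car14 and Mt1) and 4 of 100 called lower (4.0%; Fam107a, Kcna5, Sgk1 and Slc10a6), beside 28 of the 8347 genes with a kept probe set and a promoter (0.335%) and 0.44% of all 27025 genes in the table. These are letters in a short window, counted with no test, and most receptor binding lies farther from genes. The 4 promoters below are those of a classic target that rose (Mt1), one that fell (Sgk1), and 2 genes among the leading falls (Fam107a and Slc10a6); each run is read 5′ to 3′ on the strand of the gene and ends at the base before the start site, and capitals mark the element.
Mt1, chr8:94178839-94179088, plus strand: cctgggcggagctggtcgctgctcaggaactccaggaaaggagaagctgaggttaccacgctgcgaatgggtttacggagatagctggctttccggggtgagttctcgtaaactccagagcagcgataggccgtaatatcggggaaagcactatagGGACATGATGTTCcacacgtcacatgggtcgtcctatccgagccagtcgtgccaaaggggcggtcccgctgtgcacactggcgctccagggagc
Sgk1, chr10:21993640-21993889, plus strand: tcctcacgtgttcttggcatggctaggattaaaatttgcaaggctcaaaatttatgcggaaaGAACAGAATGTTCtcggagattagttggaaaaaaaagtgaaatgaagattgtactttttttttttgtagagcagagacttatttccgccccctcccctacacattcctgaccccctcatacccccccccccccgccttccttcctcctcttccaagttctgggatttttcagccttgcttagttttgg
Fam107a, chr14:8309778-8310027, minus strand: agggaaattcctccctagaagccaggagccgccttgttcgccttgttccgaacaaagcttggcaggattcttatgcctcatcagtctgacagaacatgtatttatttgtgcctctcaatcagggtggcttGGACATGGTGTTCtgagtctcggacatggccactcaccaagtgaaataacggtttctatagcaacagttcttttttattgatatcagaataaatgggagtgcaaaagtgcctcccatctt
Slc10a6, chr5:103629404-103629653, minus strand: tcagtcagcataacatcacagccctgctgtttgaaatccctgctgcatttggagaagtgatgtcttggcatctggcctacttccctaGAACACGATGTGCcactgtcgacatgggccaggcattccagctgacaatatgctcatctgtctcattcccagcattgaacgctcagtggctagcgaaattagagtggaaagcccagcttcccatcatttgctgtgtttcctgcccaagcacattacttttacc
The elements begin 94, 188, 120 and 163 bases before the start site in Mt1, Sgk1, Fam107a and Slc10a6. The FoxO element GTAAACA, searched on both strands, was in the upstream window of 5 of 152 genes called higher (3.29%; Apoh, Bbc3, Bcl2l11, Cux1 and Pim1), of 1 of 100 called lower (Col6a1) and of 2.68% of the genes with a kept probe set, and the E-box CACGTG, which reads the same on both strands, was in 10.5%, 6.0% and 10.4%.

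The ubiquitin ligases of muscle atrophy, which mark proteins for degradation, had no called member: of 14 measured, 0 were called higher or lower and the median was 0.052. Over all genes 1.23% were called higher and 1.1% lower, so 0 calls says little about a list of this size. The same holds for the other lists with 0 calls below. Fbxo32 (atrogin-1), at the brightest of its 3 probe sets, read 18003, 12063 and 10690 in Control, 19778, 20847 and 22668 in DEX and 14791, 13998 and 16880 in DEX + TE mice. All 3 DEX mice were above the 3 controls, but the DEX + TE mice lay within the controls' range, and the pooled value was 0.43 ± 0.20, adjusted p = 0.263. Trim63 (MuRF1) read 14359, 15438 and 14224 in Control, 20654, 19049 and 19083 in DEX and 11745, 10571 and 13731 in DEX + TE mice, so that DEX mice were higher and DEX + TE mice lower than every control and the pool as a whole was at 0.061 ± 0.22, adjusted p = 0.913. The other Fbxo32 probe sets stood at 0.35 ± 0.24 and 0.39 ± 0.33 (adjusted p = 0.45 and 0.542), and Asb2, a ligase subunit of muscle, at 0.17 ± 0.09, adjusted p = 0.34.

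In the rest of the degradation lists 1 gene was called, and only at dimmer probe sets: the lysosomal membrane protein Lamp2 rose at 2 of its 4 (0.81 ± 0.11, adjusted p = 0.00686; 0.63 ± 0.07, adjusted p = 0.0036), with its brightest at 0.21 ± 0.07, adjusted p = 0.145. Outside the lists, and chosen after their values were seen, the deubiquitinase Otub2 rose (0.95 ± 0.17, adjusted p = 0.0176; 0.87 ± 0.17, adjusted p = 0.0229) and the ubiquitin ligase Hecw2 fell (-1.32 ± 0.17, adjusted p = 0.00526). The proteasome, measured by 32 subunit genes, had a median of -0.035, with the members between -0.17 and 0.34. E2 enzymes and deubiquitinases (21 genes) and FoxO factors, autophagy and lysosome (25 genes) had medians of 0.022 and 0.002. The FoxO factors, which switch on the atrophy program, were at -0.29 ± 0.17, adjusted p = 0.39 for Foxo1 and 0.60 ± 0.24, adjusted p = 0.203 for Foxo3. At an unadjusted p below 0.05, limma put 1 of the 14 ligases higher and 0 lower, and 2 and 0 of the 32 proteasome genes. It put 4 and 2 of the 25 FoxO and autophagy genes higher and lower, and 4 and 4 of the 21 E2 enzymes and deubiquitinases. Of all probe sets, 20.9% had such a p in either direction.

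In IGF, insulin and mTORC1 signaling, Eif4ebp1 rose and Ddit4 and Igfbp5 fell among 27 genes measured, with a median over the list of 0.037. Eif4ebp1, the repressor of cap-dependent translation that mTORC1 inactivates, went from 4601, 3626 and 4024 to 8778, 7242 and 6436 in DEX and 5422, 6614 and 6029 in DEX + TE mice (0.72 ± 0.15, adjusted p = 0.0313). Igfbp5, the main IGF-binding protein of muscle, read 18267, 12073 and 12489 in Control, 4920, 6722 and 7554 in DEX and 10752, 7035 and 7211 in DEX + TE mice, with every DEX-injected mouse below every control (-0.97 ± 0.22, adjusted p = 0.0459). The insulin receptor substrate Irs2 and the PI3-kinase subunit Pik3r1, at 1.15 ± 0.47, adjusted p = 0.203 and 0.81 ± 0.53, adjusted p = 0.432, did not pass.

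Of 21 genes of myostatin, activin and BMP signaling, the follistatin-like Fstl1 fell (-0.76 ± 0.18, adjusted p = 0.0488). The list as a whole went the other way, with 13 genes higher by value and a median of 0.13. Limma's unadjusted p was below 0.05 for 7 higher genes and 1 lower gene of the list, against 20.9% of all probe sets. With all kept probe sets of each gene averaged, 2 genes of the list were called higher and 0 lower. Translation factors (24 genes) and ribosomal proteins (21 genes) had 0 calls at their brightest probe sets and medians of -0.008 and -0.053, and a dimmer Rps20 probe set was called higher (0.81 ± 0.19, adjusted p = 0.0487). Of 18 amino acid transporters, Slc7a8, a carrier of large neutral amino acids, and Slc43a3 fell (-1.07 ± 0.23, adjusted p = 0.0366; -0.81 ± 0.15, adjusted p = 0.0201). The calls of Fstl1, Igfbp5, Slc7a8 and Eif4ebp1 were kept in 1, 2, 2 and 3 of the 9 refits, with adjusted p up to 0.176, 0.132, 0.124 and 0.114.

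The cell-cycle and growth-arrest genes moved in both directions. Cdkn1a (p21), an inhibitor of cyclin-dependent kinases, read 652, 559 and 725 in Control, 3850, 2071 and 1503 in DEX and 1422, 1376 and 1611 in DEX + TE mice, so that all 6 DEX-injected mice were above the controls and the first DEX mouse was highest (1.51 ± 0.30, adjusted p = 0.0283). Gadd45b rose (1.33 ± 0.26, adjusted p = 0.0261) while its relative Gadd45g fell, as given above, and the S-phase cyclin Ccne2 fell (-0.66 ± 0.14, adjusted p = 0.0372). In all, 4 of 15 genes of p21, Gadd45 and G1 cyclins were called, and 0 of 9 proliferation genes (median -0.021). Of the refits, 5 called Cdkn1a, 5 Gadd45b and 2 Ccne2, and each lost its call without the third control, among others (adjusted p up to 0.116).

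Of the circadian clock genes, Per1, Per2, Per3 and Hlf fell and Bhlhe40 rose among 17 measured, with a median of -0.22. Per2, a repressor of the clock's negative arm, read 528, 558 and 505 in Control, 136, 233 and 281 in DEX and 122, 282 and 206 in DEX + TE mice, with the DEX-injected mice below all controls (-1.41 ± 0.27, adjusted p = 0.0258). Per3 and Hlf, the last a clock-output factor, were lower, at -0.67 ± 0.15 (adjusted p = 0.0424) and -0.71 ± 0.13 (adjusted p = 0.0193). Bhlhe40 (DEC1), a repressor that competes with the clock activators, rose from 3722, 3091 and 2750 to 7307, 8794 and 6028 in DEX and 8417, 6735 and 8496 in DEX + TE mice (1.26 ± 0.15, adjusted p = 0.00346). Of the activators, Clock rose at 1 of its 3 kept probe sets (0.81 ± 0.11, adjusted p = 0.00526), while its brightest was short of the fold threshold (0.41 ± 0.09, adjusted p = 0.0417), and Arntl was at 0.46 ± 0.16, adjusted p = 0.144. No source used here gives the hour of sampling. Bhlhe40 was called in all 9 refits, Per1 and Per3 in 2 and 1 of them, with adjusted p up to 0.148 and 0.141. Per2 and Hlf were lost without any 1 of the 3 controls (up to 0.0928 and 0.0806).

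The immediate early genes, which many stimuli raise within minutes, had the highest median of the lists with 10 or more genes measured, 0.85 over 20 genes, 17 of them higher by value. Over all genes 47.6% were higher by value. Nr4a2 (Nurr1), an orphan nuclear receptor, read 151, 127 and 60.9 in Control, 203, 831 and 628 in DEX and 2278, 3151 and 1634 in DEX + TE mice. Control mice were lowest, DEX mice intermediate and DEX + TE mice highest, with no overlap (3.30 ± 0.78, adjusted p = 0.0488). Fos, a subunit of AP-1, read 345, 340.5 and 289 in Control, 1452, 1331 and 564 in DEX and 894, 2318 and 1522 in DEX + TE mice, with the DEX and DEX + TE mice overlapping each other and not the controls (1.92 ± 0.37, adjusted p = 0.0244). The stress factor Atf3 showed the same order, at 145, 116 and 160.2 in Control, 523, 1108 and 300.1 in DEX and 606, 1022 and 465 in DEX + TE mice (2.12 ± 0.38, adjusted p = 0.0183). Zfp36 (tristetraprolin), which destroys cytokine mRNAs and is a known glucocorticoid target, fell (-1.37 ± 0.26, adjusted p = 0.0236). Junb, Egr1 and Klf4 were at 1.36 ± 0.34, adjusted p = 0.0605, 1.03 ± 0.50, adjusted p = 0.279 and 1.04 ± 0.28, adjusted p = 0.0732 and did not pass. Without the third control the calls of Nr4a2, Fos and Zfp36 were lost (adjusted p = 0.174, 0.1 and 0.103), and the number of called genes of the list ranged from 0 to 9 over the alternatives run.

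Stress genes moved singly. The inducible chaperone Hspa1a rose (1.82 ± 0.39, adjusted p = 0.036), as 1 of 23 heat shock genes called. Mthfd2, a mitochondrial folate enzyme, and Ppp1r15a (GADD34), which restarts translation after stress, rose among 13 genes of ATF4 stress and serine synthesis (0.81 ± 0.13, adjusted p = 0.0136; 1.00 ± 0.21, adjusted p = 0.0361), while the pathway's own factor Atf4 was at 0.11 ± 0.12, adjusted p = 0.642. The pro-apoptotic BH3-only genes Bcl2l11 (BIM) and Bbc3 (PUMA) rose among 11 BCL2 family genes (0.80 ± 0.17, adjusted p = 0.0317; 0.61 ± 0.12, adjusted p = 0.0233). Of 24 antioxidant genes, Gpx3, the secreted glutathione peroxidase, rose (1.08 ± 0.19, adjusted p = 0.0174) and Gsta4, a glutathione transferase for lipid aldehydes, fell (-0.63 ± 0.09, adjusted p = 0.00657). Without the third control Bbc3, Bcl2l11, Gpx3, Gsta4, Mthfd2 and Ppp1r15a were not called, Gsta4 there alone. Hspa1a was kept in 1 of the 9 refits and Bcl2l11 and Ppp1r15a in 3 each (adjusted p up to 0.122, 0.116 and 0.119).

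H2-Aa, Iigp1 and Nfkbia fell among the immune lists. H2-Aa, a chain of the MHC class II molecule that presents antigen, read 733, 1523 and 1338 in Control, 94.8, 203 and 198 in DEX and 343, 421 and 294 in DEX + TE mice. At this probe set control mice were highest and DEX mice lowest, with no overlap between the groups (-2.29 ± 0.44, adjusted p = 0.0237). H2-Aa was also called at a dimmer probe set (-1.87 ± 0.42, adjusted p = 0.0418), with nearly equal values in DEX (-1.88) and DEX + TE mice (-1.86). It was the only 1 of 5 measured MHC class II genes called, and H2-Ab1, H2-Eb1 and Cd74 were at -1.74 ± 0.54, adjusted p = 0.107, -1.47 ± 0.69, adjusted p = 0.266 and -1.22 ± 0.30, adjusted p = 0.0589, which gave the list the lowest median of all, -1.47. The interferon-induced GTPase Iigp1 fell, as 1 of 19 interferon-induced genes (-1.25 ± 0.28, adjusted p = 0.041; list median -0.14). Complement and chemokines, with 7 genes each, had 0 calls and medians of -0.26 and -0.21. At the brightest probe sets 0 of either list had an unadjusted p below 0.05 in limma's test. Dimmer probe sets of Cd55 (-0.565 and -0.40, unadjusted p = 0.00307 and 0.0145) and Cxcl12 (-0.35, unadjusted p = 0.0327) did, and were not called. Of 7 NF-kB subunits and inhibitors Nfkbia was called at the brightest probe set, the kinase subunit Ikbkg rose at a dimmer one (1.13 ± 0.26, adjusted p = 0.0448), and Rela was at 0.34 ± 0.08, adjusted p = 0.055. H2-Aa was not called without the second control, the third control or the second DEX array (adjusted p up to 0.0999), nor in the DEX + TE mice taken alone, and Iigp1 was called in 2 of the 9 refits (adjusted p up to 0.155).

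Of the acute-phase proteins, most of which are liver products, 6 of 22 listed genes had a kept probe set, and Lcn2 and Hp were the 2 called. Both reached the mean of 100 only through the DEX-injected mice, in which they are high, so the count and the median of 0.43 over measured members are set in part by the response. Of 4 genes of catecholamine synthesis and adrenergic receptors Pnmt was the 1 called (median 0.17). Among 11 metallothioneins and zinc transporters, Slc30a2, which loads zinc into vesicles, rose (1.00 ± 0.17, adjusted p = 0.0154), as did Mt1, and the importer Slc39a10 fell (-0.68 ± 0.13, adjusted p = 0.0237). Slc30a2 was called in all 9 refits and Slc39a10 in all but those without the second control, the third control or the second DEX mouse (adjusted p up to 0.103).

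Collagens fell: 7 of 18 chains measured were called lower, 0 were called higher and every chain was below 0 (median -0.59). Over all genes 1.1% were called lower and 47.6% were higher by value. Col3a1, of the fine reticular fibers around muscle fibers, read 5262, 9178 and 7363 in Control, 761, 1321 and 1117 in DEX and 1876, 1754 and 1558 in DEX + TE mice. At this probe set control mice were highest and DEX mice were below DEX + TE mice, with no overlap (-2.40 ± 0.29, adjusted p = 0.00378, or 5.29-fold lower). A dimmer called Col3a1 probe set (-2.26 ± 0.20, adjusted p = 0.000612) was nearly equal in the diets, at -2.29 in DEX and -2.22 in DEX + TE mice. Col1a2, of the main fibrillar collagen, read 8582, 13498 and 11826 in Control, 1672, 2670 and 2692 in DEX and 4107, 3625 and 3679 in DEX + TE mice at its brightest probe set, again lowest in DEX mice (-1.91 ± 0.27, adjusted p = 0.00805). Its partner Col1a1 was lower, at -1.51 ± 0.27 at its brightest probe set and -2.31 ± 0.46 at another (adjusted p = 0.0188 and 0.0275). Col5a2 (-1.04 ± 0.20) and the beaded-filament chains Col6a1, Col6a2 and Col6a3 (-0.82 ± 0.19, -0.86 ± 0.19 and -0.83 ± 0.18) were called lower. The basement-membrane chains Col4a1 and Col4a2 were at -0.18 ± 0.11, adjusted p = 0.404 and -0.27 ± 0.11, adjusted p = 0.202.

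Other matrix genes moved in both directions. Of 25 non-collagen matrix genes, the collagen-spacing proteoglycan Lum and the laminin linker Nid1 fell, with -1.06 ± 0.25 (adjusted p = 0.0487) and -0.79 ± 0.18 (adjusted p = 0.0487). By value 22 of the list were lower (median -0.29), while 47.6% of all genes were higher by value. Fibulin-1 (Fbln1) rose at a dimmer probe set (0.70 ± 0.17, adjusted p = 0.0497), with its brightest at 0.93 ± 0.23 (adjusted p = 0.0548). Of 17 matrix enzymes and inhibitors, the metalloproteinase inhibitors Timp4 and Timp3 and the collagen-processing enhancer Pcolce fell. Timp4 read 4820, 4024 and 4632 in Control, 2314, 1028 and 1072 in DEX and 1037, 810 and 915 in DEX + TE mice, with no overlap (-2.001 ± 0.28, adjusted p = 0.00793); Timp3 was at -0.78 ± 0.10, adjusted p = 0.00461, and was called at 2 of its 4 kept probe sets, and Pcolce at -0.95 ± 0.22, adjusted p = 0.0455. At a dimmer probe set the collagen cross-linking enzyme Lox rose (0.65 ± 0.14, adjusted p = 0.0352), while its brightest was at 0.016 ± 0.20 (adjusted p = 0.978). The gelatinase Mmp2 fell at a dimmer probe set (-1.05 ± 0.17, adjusted p = 0.0116) and was not called at its brightest. The matrix glycoproteins Thbs1 and Adamtsl2, in none of these lists and chosen after their values were seen, rose (2.02 ± 0.16, adjusted p = 0.000412; 1.93 ± 0.44, adjusted p = 0.043). Kera and Fbln7, in none of these lists, fell too, with -1.92 ± 0.40 (adjusted p = 0.0313) and -1.58 ± 0.33 (adjusted p = 0.0328). Fbln7 averaged 81.9 in DEX and 70.0 in DEX + TE mice, so it reached the mean of 100 only through the controls. The size of its fall is less certain than for brighter genes. Lum, Nid1 and Pcolce were each called in 2 or fewer of the 9 refits (adjusted p up to 0.174), and Timp4 and Timp3 in all 9.

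Of 9 fibroblast markers, Col1a1 and Lum, both matrix genes themselves, were called lower, while Pdgfra, Dcn and Gsn were at 0.13 ± 0.21, adjusted p = 0.78, -0.29 ± 0.17, adjusted p = 0.374 and 0.23 ± 0.23, adjusted p = 0.627, and the list's median was -0.38. The summed signal of all fibroblast markers was 38084 to 54025 in Control, 30774 to 40580 in DEX and 50623 to 57458 in DEX + TE mice. Bright Dcn weighs heavily in this sum, at 16427, 23699 and 23393 in Control mice. Of 6 tendon markers, Tnmd and Thbs4 fell (-1.49 ± 0.30, adjusted p = 0.0295; -0.64 ± 0.12, adjusted p = 0.0218), and the summed tendon signal was 12740 to 14575 in Control, 6953 to 8840.2 in DEX and 9010.4 to 11584 in DEX + TE mice, without overlap between control and DEX-injected mice. The part of fibroblast or tendon content in the collagen result was not tested. Col3a1 and Col1a2 were called in all 9 refits, Col1a1 in 7, Col5a2 in 6, and Col6a1, Col6a2 and Col6a3 in 1, 2 and 2 of them (adjusted p up to 0.179). Without the third control neither Tnmd nor Thbs4 was called (adjusted p = 0.119 and 0.0999). In the DEX + TE mice taken alone Col3a1 and Col1a2 were called, and Col1a1, Col5a2, Col6a1, Col6a2 and Col6a3 were not. The losses of Col1a1 were without the second and the third control, and the number of chains called ranged from 1 to 8 over the alternatives run.

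**Figure D4:**
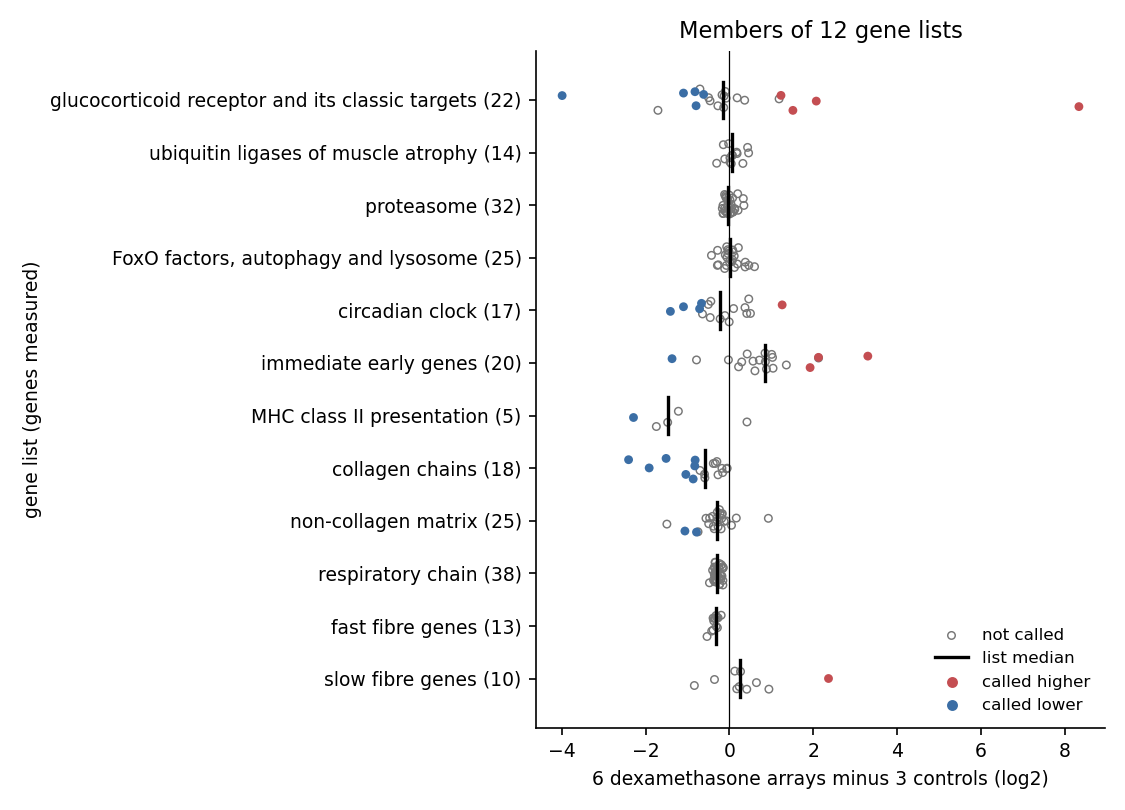
Each point is 1 gene of a list (rows, with the number of genes measured), placed by the log2 difference between the 6 DEX-injected and 3 control mice; filled red and blue points are called higher and lower, open points are not called, and black bars are list medians. The collagens lie below 0 throughout with a median of -0.59, the immediate early genes mostly above it, and the proteasome genes within -0.17 to 0.34; the respiratory and fast fiber genes are shifted together without a call, a shift that another scaling removes or shrinks.

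Contractile genes of fast fibers, which make up most of this muscle, had no call: the 13 genes measured, each of them lower, had a median of -0.33, from -0.53 for Myh2 to -0.20 for Actn3. The respiratory chain behaved alike, with 0 of 38 genes called and every one below 0 (median -0.30). These shifts depend on the scaling of the arrays: after quantile normalization the medians were 0.0 and -0.091, so no direction is given for the fast fiber genes. The same holds for the 8 skeletal muscle fiber markers (median -0.34, and -0.010 after quantile normalization). Limma's unadjusted p was below 0.05 for 11 of the 13 and 31 of the 38, all lower in this scaling, against 20.9% of all probe sets.

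Single fiber genes did pass. Myh7, the slow myosin of which this muscle has little, read 82.8, 22.9 and 75.9 in Control, 161, 488 and 186 in DEX and 151, 481 and 346 in DEX + TE mice, above every control in each DEX-injected mouse but dim (2.35 ± 0.53, adjusted p = 0.0422), as 1 of 10 slow fiber genes, beside Tnnc1 and Myl2 at 0.64 ± 0.16, adjusted p = 0.0526 and 0.94 ± 0.40, adjusted p = 0.216. Myh8, the perinatal myosin, rose from 81.4, 78.3 and 72.5 to 189, 191 and 217 in DEX and 223, 263 and 129.5 in DEX + TE mice (1.35 ± 0.19, adjusted p = 0.00745). Every control was under 100, so Myh8, like Myh7, passed the filter on mean signal only through the DEX-injected mice. Of 28 sarcomere and Z-disc genes, the actin-binding Xirp1 and the calcineurin-binding Myoz2 of slow fibers rose (1.25 ± 0.21, adjusted p = 0.0154; 0.91 ± 0.17, adjusted p = 0.0233), and cardiac actin Actc1 and the fast-fiber Myoz3 fell (-1.22 ± 0.29, adjusted p = 0.0491; -0.66 ± 0.10, adjusted p = 0.00973). Sarcolipin (Sln), which uncouples the calcium pump, rose among 22 excitation-contraction and dystrophin complex genes (0.79 ± 0.15, adjusted p = 0.0211). The dystrophin-associated Dtna and Sntb1 rose at dimmer probe sets only, and neither was called at its brightest. Dtna was at 0.76 ± 0.11 (adjusted p = 0.00854), 0.88 ± 0.15, 0.90 ± 0.09 and 1.055 ± 0.14 at its called probe sets, and Sntb1 at 1.26 ± 0.24 (adjusted p = 0.0233). Of 11 neuromuscular junction genes 0 were called, with the receptor subunit Chrna1 at 0.58 ± 0.12, adjusted p = 0.0338, short of the fold threshold. Myh8 and Myoz3 were called in all 9 refits and Myh7 and Actc1 in 1 each (adjusted p up to 0.128 and 0.155). Xirp1, Myoz2 and Sln were lost without the third control, among others (adjusted p up to 0.0748, 0.102 and 0.0869).

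Car3, the carbonic anhydrase of slow fibers and fat, differed between its probe sets. It rose by 2.53 ± 0.45 and 2.37 ± 0.52 at a pair of dim ones (adjusted p = 0.0174 and 0.0383) and was at -0.44 ± 0.14 and -0.34 ± 0.18 at the bright ones (adjusted p = 0.109 and 0.309), whose signal is far higher. No direction is therefore given for the gene as a whole.

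Of the metabolic genes, the lipogenic pair Fasn and Srebf1 rose. Fasn, fatty acid synthase, read 101, 208 and 134 in Control, 429, 386 and 388 in DEX and 358, 313 and 366 in DEX + TE mice, with no overlap (1.397 ± 0.20, adjusted p = 0.00769), and Srebf1, the transcription factor that drives it, rose by 0.61 ± 0.12 (adjusted p = 0.0264), just past the fold threshold. They were 2 of 16 fatty acid synthesis and storage genes, and Scd1 was at 1.03 ± 0.42, adjusted p = 0.198. Of 22 genes of glycolysis, glycogen and glucose uptake, Pfkfb3, which makes the activator of phosphofructokinase, rose (1.11 ± 0.22, adjusted p = 0.0285). The list as a whole went the other way, with 18 genes lower by value and a median of -0.26 (-0.13 after quantile normalization). Limma's unadjusted p was below 0.05 for 3 higher and 10 lower genes of the list, against 20.9% of all probe sets. Fatty acid uptake and oxidation (20 genes), cholesterol synthesis (12 genes), mitochondrial biogenesis regulators (15 genes) and polyamine metabolism (8 genes) had 0 calls, with medians of 0.007, -0.053, -0.19 and 0.002. Fasn was called in all 9 refits, and Srebf1 and Pfkfb3 in 1 and 3 (adjusted p up to 0.0948 and 0.105).

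The adipokines Adipoq and Retn rose, Adipoq from 268, 371 and 441 to 868, 721 and 905 in DEX and 1165, 2050 and 1761 in DEX + TE mice (1.71 ± 0.34, adjusted p = 0.0264) and Retn by 1.44 ± 0.22 (adjusted p = 0.00975), while the third adipocyte gene with a kept probe set, Fabp4, was at -0.30 ± 0.11, adjusted p = 0.153. The summed adipocyte signal was 20931 to 24915 in Control, 16770 to 20108 in DEX and 20461 to 22842 in DEX + TE mice. Bright Fabp4 makes up most of this sum, at 24232, 20162 and 21500 in Control mice. Of 10 endothelial markers, 5 higher and 5 lower by value (median -0.022), Vwf and the VEGF receptor Flt1 fell (-0.92 ± 0.14, adjusted p = 0.0107; -0.75 ± 0.18, adjusted p = 0.0487), with Pecam1 and Cdh5 at 0.011 ± 0.13, adjusted p = 0.977 and -0.36 ± 0.27, adjusted p = 0.48 and Egfl7 at 0.58 ± 0.11, adjusted p = 0.0223, short of the fold threshold. Cldn5, an endothelial junction gene outside the list and chosen after its values were seen, rose (1.84 ± 0.23, adjusted p = 0.00406). Retn was called in all 9 refits, Vwf in all but the one without the third control (adjusted p = 0.0607), and Adipoq and Flt1 in 5 and 2 (adjusted p up to 0.0877 and 0.16).

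Blood-cell markers were dim. The neutrophil gene S100a8 rose (1.49 ± 0.33, adjusted p = 0.0403) from signals of 64.5, 57.2 and 105 in Control to 176, 239.6 and 345 in DEX and 111, 182 and 249.8 in DEX + TE mice, and was called in 1 of the 9 refits (adjusted p up to 0.136). Its control mean was under 100, so S100a8 passed the filter on mean signal only through the DEX-injected mice. Of 6 macrophage markers 0 were called (median 0.003), and 1 lymphocyte and 1 erythroid gene had a kept probe set, Cd8a at 0.11 ± 0.35, adjusted p = 0.9 and Hba-a2 at 0.070 ± 0.17, adjusted p = 0.857. Smooth muscle and pericyte (8 genes), Schwann cell (4 genes) and epidermis (1 gene) markers had 0 calls, with medians of -0.14, 0.25 and 0.41. Whether cell content has a part in any gene group was not tested.

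Fibrillar collagens were less reduced by value in DEX + TE than in DEX mice, although a dimmer Col3a1 probe set was nearly equal in both. Nr4a2 was higher in DEX + TE mice, but no probe set passed the test of a difference between the diets. The contrast of DEX + TE with DEX leaves out the controls, which both arms share. It called 0 of 19521 probe sets (0.0%), with a lowest adjusted p of 0.199 by limma, and 1494 (7.65%) had an unadjusted p below 0.05. Of the 426 probe sets called for DEX, 49 (11.5%) did. In 34 of these 49 the change was smaller in DEX + TE mice (10 of those called higher and 24 of those called lower) and in 15 it was larger (11 and 4). The median absolute difference between the diets was 0.17 over the called probe sets and 0.12 over all. The median absolute DEX response of the called probe sets was 0.90. The 0.17 and the 0.90 cannot be weighed against each other, because the calls required a minimum fold change after DEX. The fit of 6 DEX-injected against 3 control mice also counted differences between the diets as error, which made such probe sets harder to call.

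Taken separately against the same 3 controls, the DEX mice gave 197 probe sets called higher and 209 lower, and the DEX + TE mice 155 and 84. The 2 sets of values side by side were 8.61 and 8.05 for Lcn2, 2.26 and 1.88 for Fkbp5, -3.87 and -4.10 for Ddit4, and -0.80 and -0.79 for Tsc22d3. For the collagen chains the medians were -0.79 in DEX and -0.37 in DEX + TE mice, and for the immediate early genes 0.54 and 1.02. The single differences between the diets were 2.26 ± 0.55 for Nr4a2 (unadjusted p = 0.00288, adjusted p = 0.408), 0.73 ± 0.22 for Col1a2 (0.0101 and 0.493), -0.77 ± 0.26 for Cdkn1a (0.0161 and 0.535) and -0.71 ± 0.11 for Trim63 (0.000163 and 0.29). The median standard error of the difference over all probe sets was 0.15.

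**Figure D5:**
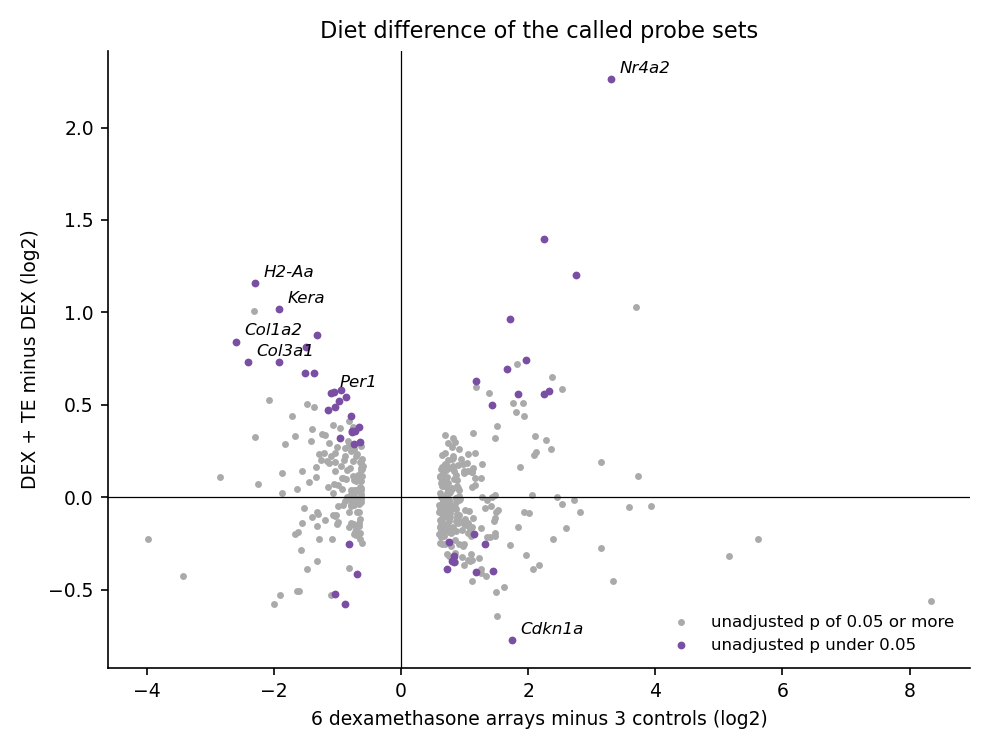
Each point is 1 of the 426 called probe sets, placed by its DEX response (6 DEX-injected minus 3 control mice, log2, horizontal) and by the difference between the diets (DEX + TE minus DEX, log2, vertical). The 49 points with an unadjusted p below 0.05 for the diet (purple) include Nr4a2 at the top, Cdkn1a at the bottom and collagens at the upper left; none passed after adjustment.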

How the data were processed

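RNA (250 ng per mouse) was labelled with a 3′IVT Express kit and hybridised to Affymetrix mouse GeneChip arrays. The authors deposited 1 table of linear signal intensities per probe set, scaled so that each array has a trimmed mean of 500 (2% trimmed at each end). Their methods describe RMA, R 3.6.2 and Rank Product tests; the deposited intensities are another summary, and no source used here names the program. Rank Product was not run.

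Of 45101 probe sets, 64 controls were left out. Annotation gave 34945 probe sets 1 symbol, 932 several and 9160 none, and 34741 symbols were found in the RefSeq table for GRCm38.p6. Intensities were taken to log2 and fitted with limma 3.58.1 (lmFit, eBayes; R 4.3.3), 6 DEX-injected against 3 Control mice, with Benjamini-Hochberg adjustment over the 19521 probe sets kept. Errors after ± are standard errors of log2 fold changes. Python 3.11.15 with pandas 2.3.3, numpy 2.4.6, scipy 1.17.1 and matplotlib 3.10.9 was used for summaries. The number of arrays limits the precision. The code was tested on simulated data.

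Named were the 20 largest rises and 20 largest falls, up to 8 called members of each of 42 pathway and 12 cell type lists (where none was called, the 3 brightest), the classic targets and the genes the study measured by RT-PCR, and the 3 brightest markers of each cell type. Uncalled list members named beside called ones were chosen after their values were seen. A list takes the brightest kept probe set of each gene, so its counts do not cover dimmer ones; calls at any kept probe set, and signals raised to 50, were added after seeing the data. Members, lists and rules were chosen with earlier results of these data known. Alternatives changed the normalization, offset, filter, variance prior, array weights, model, threshold and arrays.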

Additional observations from a re-analysis of the deposited data

Results flagged for a closer look

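Over the 6 DEX-injected mice, 1 array stood far from the other 5 in 7 of the 100 named called probe sets, where chance flags about 1 in 20 groups. The first DEX mouse was the far one in 6 of them. Its signal was 716.3 for Arrdc2, 2314 for Timp4, 2714 for a second Fkbp5 probe set, 7918 for Mt1, 2242 for Pnmt and 2846 for Srebf1. The first DEX + TE mouse had 3041 for Timp3. No explanation was tested.

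In 5 of the 205 named probe sets every DEX mouse lay on one side of the Control mean and every DEX + TE mouse on the other. The difference between the diets was -0.713 for the ubiquitin ligase Trim63 (adjusted p = 0.29), 0.69 for Csf1r, the macrophage growth factor receptor (adjusted p = 0.511), 0.515 for the complement inhibitor Serping1 (adjusted p = 0.424), 0.31 for the chemokine Cxcl12 (adjusted p = 0.54) and -0.411 for the alpha-globin Hba-a2 (adjusted p = 0.553), all on the log2 scale. None of these differences passed limma's test.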

How the results depend on the processing

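The 252 probe sets called higher and 174 called lower became 57 and 27 with no filter on low signal, 168 and 98 with a filter on a group mean of 50, 155 and 84 with the DEX + TE mice alone, 404 and 407 with no minimum fold change and 108 and 75 at a minimum log2 fold change of 1. Leaving out 1 array gave 135 to 267 called higher and 57 to 178 called lower. The DEX mice alone gave 197 higher and 209 lower, and median centring 182 and 170, so the balance of higher and lower calls depends on these choices. The contrast of the diets called 4 probe sets with the filter on a group mean of 50, 3 with a mean-variance trend and 0 in each other alternative. The replicate numbers do not pair the mice (correlations of deviations -0.098 to 0.067 for same-numbered pairs, -0.096 to 0.124 for others); with the replicate number as a block 194 probe sets were called higher and 117 lower. Of 2187 alternative values of named probe sets 0 reversed and 590 lost the call, and 1190 of 1239 list medians moved by less than the spread between arrays. Of the 100 named called probe sets 21 were called under each alternative normalization, offset, filter, prior, weighting and model and with each array left out. With 3 controls and signals under 100 left out, changes in dim genes were not assessed, and the causes of these shifts were not tested.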

Other observations

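Among bright called genes outside the lists, chosen after their values were seen, metabolic and muscle genes moved in both directions. The ketone-using enzyme Oxct1, the transferrin receptor Tfrc, the water channel Aqp1 and the muscle kinase Mylk4 fell, with log2 fold changes of -0.93 ± 0.10, adjusted p = 0.00223 for Oxct1, -1.15 ± 0.23, adjusted p = 0.0274 for Tfrc, -0.63 ± 0.07, adjusted p = 0.00174 for Aqp1 and -0.71 ± 0.09, adjusted p = 0.00406 for Mylk4. Tecr, which completes the elongation of very long fatty acids, rose by 1.11 ± 0.08, adjusted p = 0.000237, and the lipid droplet protein Plin5 by 1.26 ± 0.15, adjusted p = 0.00406. The retinal dehydrogenase Aldh1a1, the Z-disc protein Pdlim5 and the ubiquitin ligase subunit Asb11 rose by 0.91 ± 0.14, adjusted p = 0.0101, 0.92 ± 0.12, adjusted p = 0.00526 and 0.78 ± 0.12, adjusted p = 0.00974.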
